A study of Canis lupus familiaris with 15 samples.

Results

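The keratinocyte layer genes of this panel are KRT5, KRT14, KRT1 and KLK7, 4 of 160 NanoString probes counted in skin of 15 dogs. They were found by matching probe accessions, version numbers ignored, to the dog genes of these names in RefSeq: NM_001346035.1 is KRT5, NM_001253741.1 is KRT14, NM_001003392.1 is KRT1 and NM_001197165.1 is KLK7. The dogs were household animals sampled by archival skin biopsy. The labels give 7 dogs with discoid lupus erythematosus (DLE), aged 1 to 13 years, each of a different breed or cross (German Shepherd cross, Pitbull, Boxer, German Shorthair Pointer, Saint Bernard, mixed breed and Coonhound). They give 1 German Shepherd Dog of 7 years with the chronic cutaneous form and possible systemic disease (CCLE), 1 Australian Shepherd of 6 years with mucocutaneous lupus (MLE) and 1 Border Collie of 9 years with pyoderma, a bacterial skin infection. The 5 healthy samples are leg margins re-used from an earlier series, with no age or breed in the labels. No treatment is given for any dog, and the body site of the lesions is not labelled, so site and disease cannot be told apart.

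The epidermis renews itself from its lowest layer outward. Basal keratinocytes, which divide, hold filaments made of the paired keratins 5 and 14. Cells that leave the basal layer switch to keratin 1 and its partner keratin 10, and in the outer, cornified layer the protease kallikrein 7 cuts the junctions that hold dead cells together so that they are shed. In discoid lupus the immune attack is directed at the border of epidermis and dermis, where the basal cells sit. The 4 probes thus count RNA of genes whose proteins belong to 3 depths of the epidermis. Where in the biopsy that RNA was made was not measured. A biopsy is a mixture, so fewer cells of a layer and less RNA per cell cannot be told apart.

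Counts summed over the panel ran between 209889 and 675018, both in healthy dogs (1 and 3). All 4 genes were above background in all 15 dogs, the highest background limit being 30.0 counts. The lowest count of any of them was 197, for KLK7 in DLE dog 5 (exact 95% Poisson interval 170 to 227, counting error only). The 4 genes together took 18.3% to 42.4% of panel counts in the DLE dogs, 14.5% in the CCLE, 15.6% in the MLE and 22.4% in the pyoderma dog, and 13.1% to 31.2% in the healthy dogs. Of the 14 ERCC control rows 6 were high in each dog, but not the same 6. One pattern was seen in all DLE dogs and the MLE and pyoderma dogs, the other in all healthy dogs and the CCLE dog. Between DLE and healthy dogs, disease and control pattern cannot be told apart. Values with the pattern as a block come from a fit of the 9 lupus dogs against the 6 other dogs (pyoderma and healthy), in which only the CCLE and pyoderma dogs tell disease from pattern. That fit called 26.0% of probes.

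Among the 4 genes KRT14 rose in DLE skin, and KRT5, KRT1 and KLK7 did not pass the test. The KLK7 mean was lower and the KRT5 and KRT1 means were higher in DLE, within a wide spread. One gene of 4 was called by edgeR's quasi-likelihood test at a Benjamini-Hochberg adjusted p under 0.05. Over the panel 61.7% of the 154 probes tested were called, 37.7% as higher and 24.0% as lower in DLE, so the share of calls among the layer genes was not above that of the panel. Their median log2 change was 0.61, against 0.42 over all probes tested. For none of the 4 did the DLE and healthy ranges separate, which they did for 37.7% of probes.

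**Figure D1:**
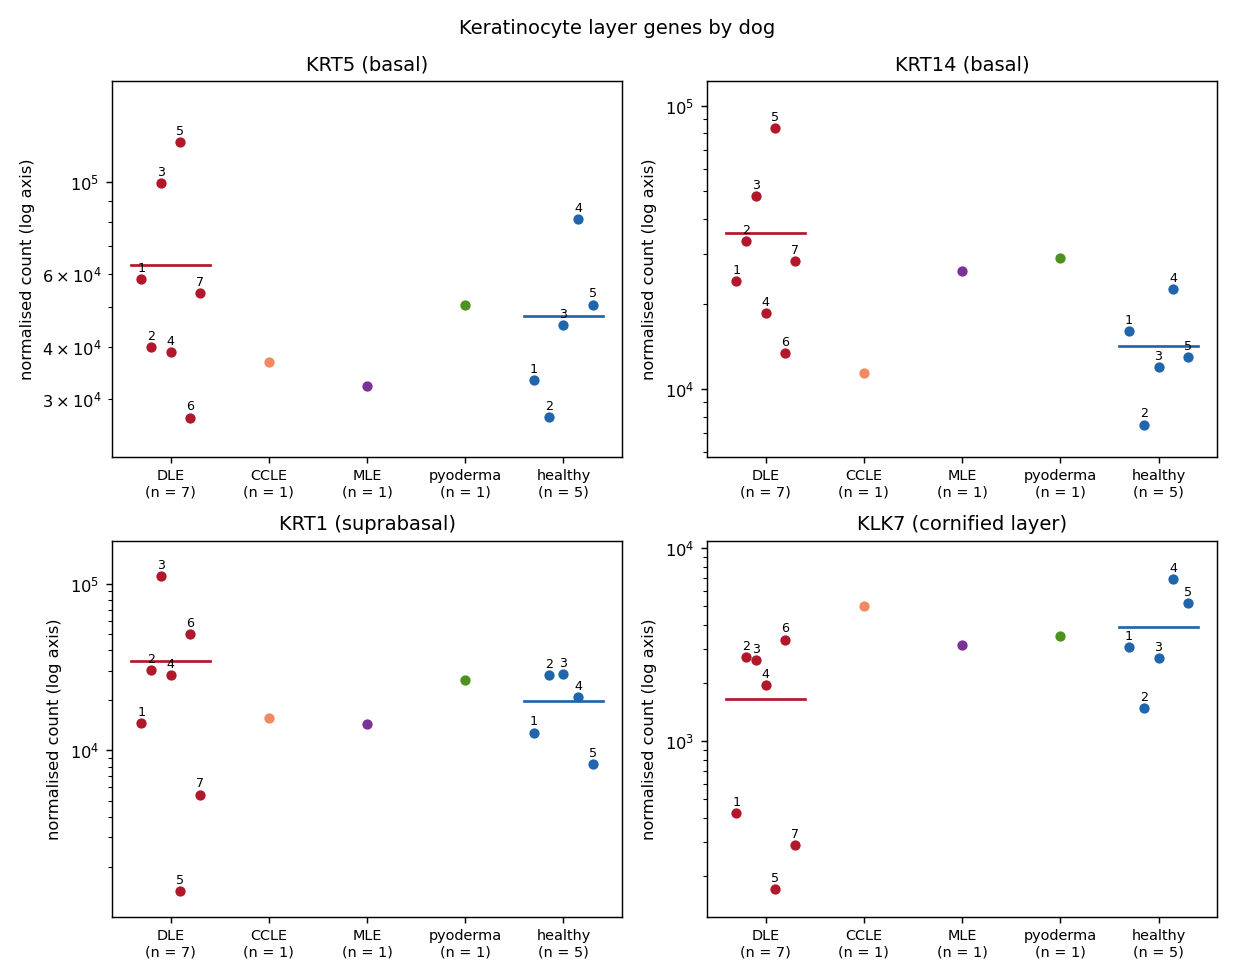
Normalised counts (log axis) of KRT5, KRT14, KRT1 and KLK7 in each dog by diagnosis, with replicate numbers beside the points and a line at the arithmetic mean of the DLE and the healthy dogs. In these normalised counts KRT14 lies above all healthy dogs in 5 of 7 DLE dogs, and KLK7 lies below all healthy dogs in DLE dogs 1, 5 and 7.

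KRT14, the type I keratin of basal cells, had normalised counts of 24038, 33327, 48178, 18609, 83408, 13418 and 28279 in DLE dogs 1 to 7, against 16078, 7521, 12013, 22637 and 12966 in healthy dogs 1 to 5. Of the DLE dogs 5 of 7 lay above every healthy dog in these normalised counts, and dogs 4 and 6 lay inside the healthy range. A share of panel counts scales each dog by its panel total alone. By that share only DLE dogs 2, 5 and 7 (6.79%, 16.8% and 6.29%) lay above the highest healthy dog (5.35%). The other DLE dogs were inside the healthy range by that share. In DLE dog 3 a single probe held 39.6% of panel counts, which lowers the shares of its other probes. The means were 35608 ± 23864 (SD, n = 7) in DLE and 14243 ± 5604 (n = 5) in healthy dogs. On the log2 scale KRT14 rose by 1.32 ± 0.47 (SE; adjusted p = 0.0243, edgeR). The call was lost without healthy dog 2 (log2 1.16, edgeR adjusted p = 0.0612), without healthy dog 3 (1.27, adjusted p = 0.0532) and without healthy dog 5 (1.29, adjusted p = 0.0535), and with the control pattern as a block the change was -0.031 (edgeR adjusted p = 0.972). DLE dog 5 held the highest level, and without it the change was 0.96 (edgeR adjusted p = 0.0467).

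KRT5, the type II keratin that pairs with keratin 14, ranged from 26994 to 124870 in DLE dogs with a median of 53811, and stood at 33269, 27024, 45229, 81407 and 50608 in healthy dogs 1 to 5. DLE dogs 3 and 5 exceeded all healthy dogs, DLE dog 6 lay just under the lowest, and the other 4 fell inside the healthy range. As a share of panel counts DLE dog 3, at 9.15%, lay inside the healthy range (5.51% to 19.2%). The difference on the log2 scale was 0.41 ± 0.44 (SE; adjusted p = 0.414, edgeR), and -0.063 with the control pattern as a block. The highest DLE dog was the same for both basal keratins, as was the lowest: dog 5 and dog 6.

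KRT1, the suprabasal keratin, varied more among DLE dogs than either basal keratin did. Its normalised counts were 14511, 30453, 111492, 28223, 1434, 50057 and 5433 in DLE dogs 1 to 7, against 12799, 28238, 28606, 20903 and 8303 in healthy dogs 1 to 5. Dogs 2, 3 and 6 with DLE had more KRT1 than any healthy dog, dogs 5 and 7 had less than any, and dogs 1 and 4 were inside. The highest DLE dog had 77.7 times the level of the lowest, against 3.45 times among healthy dogs.

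The normalisation set part of that range. In DLE dog 3 a single probe without a symbol, NM_001013425.1 (named after its values were seen), held 39.6% of panel counts, and the scaling multiplied the counts of this dog by 1.97. As a share of panel counts, without that scaling, KRT1 was 10.3% in DLE dog 3, 10.1% in DLE dog 6 and 0.289% in DLE dog 5, a 35.5-fold range, and 1.98% to 6.96% in healthy dogs. By this share DLE dog 2, at 6.20%, lay inside the healthy range. The SD of log2 KRT1 was 2.10 among DLE dogs, the 5th largest of 154 probes, and 0.77 among healthy dogs, the 30th largest. Spread was larger in DLE than in healthy dogs for 68.2% of probes, and the difference in spread was not tested.

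The mean of KRT1 did not differ between the groups by more than this spread: 34515 ± 37779 (SD, n = 7) in DLE and 19770 ± 9099 (n = 5) in healthy dogs. In log2 units the fitted difference was 0.80 ± 0.79 (SE; adjusted p = 0.376, edgeR). Without DLE dog 3 the change was 0.13. On the mean of log2 values, which gives the low dogs more weight, it was -0.0099 (limma adjusted p = 0.991).

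KLK7, the protease of the cornified layer, had 424, 2712, 2622, 1941, 170, 3348 and 290 normalised counts in DLE dogs 1 to 7, against 3078, 1477, 2700, 6931 and 5200 in healthy dogs 1 to 5. Dogs 1, 5 and 7 with DLE lay below every healthy dog, the other 4 were inside the healthy range, and all 7 were under the healthy mean. As a share of panel counts DLE dog 3, at 0.241%, also lay below the lowest healthy dog (0.301%). KLK7 averaged 1644 ± 1328 (SD, n = 7) in DLE and 3877 ± 2171 (n = 5) in healthy dogs. The fitted log2 difference was -1.24 ± 0.68 (SE; adjusted p = 0.129, edgeR). The gene was called lower under panel median scaling (edgeR log2 -1.98, adjusted p = 0.0189, with 41.6% of probes called lower) and by DESeq2 (-1.51, adjusted p = 0.0281, with 35.0% of probes lower). With the control pattern as a block its change was -0.31 ± 0.75 (SE; edgeR adjusted p = 0.815), in a fit that pools the CCLE and MLE dogs with the DLE dogs. Differences inside the patterns had opposite signs for disease. On the log2 scale with TMM the pyoderma dog lay 1.82 above the DLE mean. The CCLE dog lay 0.57 above the healthy mean, and each value rests on that 1 dog.

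**Figure D2:**
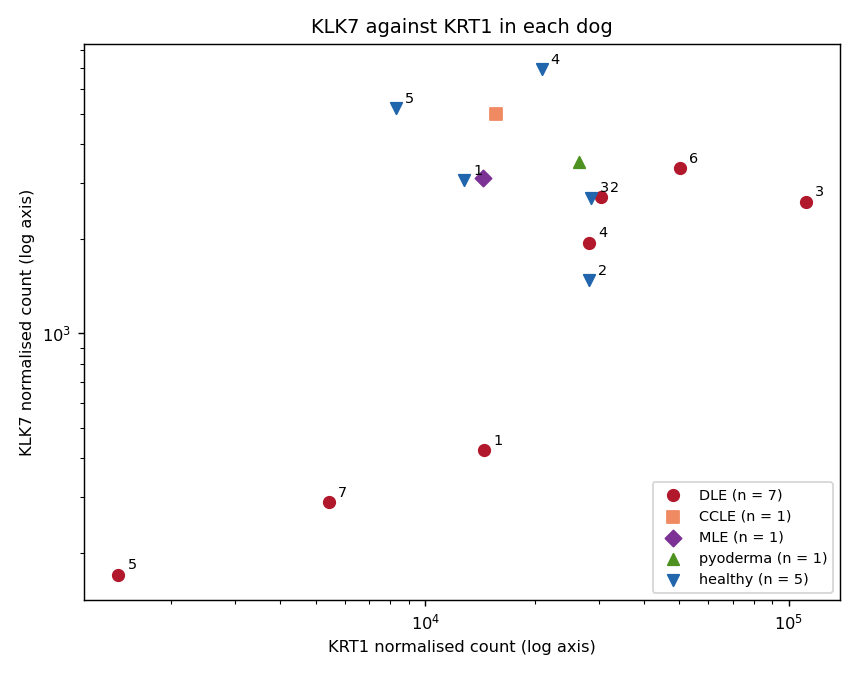
KLK7 against KRT1 normalised counts (both log axes), 1 point per dog, with replicate numbers beside DLE and healthy points. DLE dogs 5, 7 and 1 have the 3 lowest KLK7 values, and DLE dogs 5 and 7 the lowest KRT1 values, whereas healthy dog 5 combines low KRT1 (8303) with high KLK7 (5200).

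The size of each change moved with the scaling, and so did the whole panel. The median log2 change over all probes was 0.42 with TMM, 1.09 with the reference genes HPRT1 and RPL13A and -0.26 with the panel median. A change of scaling shifts most probes nearly alike, so values relative to these medians tend to stay close by construction. Relative to these medians KRT14 changed by 0.90, 0.90 and 0.92 and KLK7 by -1.66, -1.55 and -1.71. KRT5 stood at -0.012, -0.038 and 0.027 relative to them, and its own log2 change turned from 0.41 with TMM to -0.24 with the panel median. KRT1 stood at 0.38, 0.27 and 0.39 relative to them, and at 0.016 with scaling to the ERCC control rows (spike-ins). Spike-in scaling divides by the sum of the control rows, and the 6 high rows differed between the control patterns. With the control pattern as a block KRT14 stood at 0.0084 and KLK7 at -0.27 relative to the median of that fit. KRT14 was not called with the panel median (edgeR log2 0.65, adjusted p = 0.286) or with quantile scaling (limma log2 0.67, adjusted p = 0.198).

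**Figure D3:**
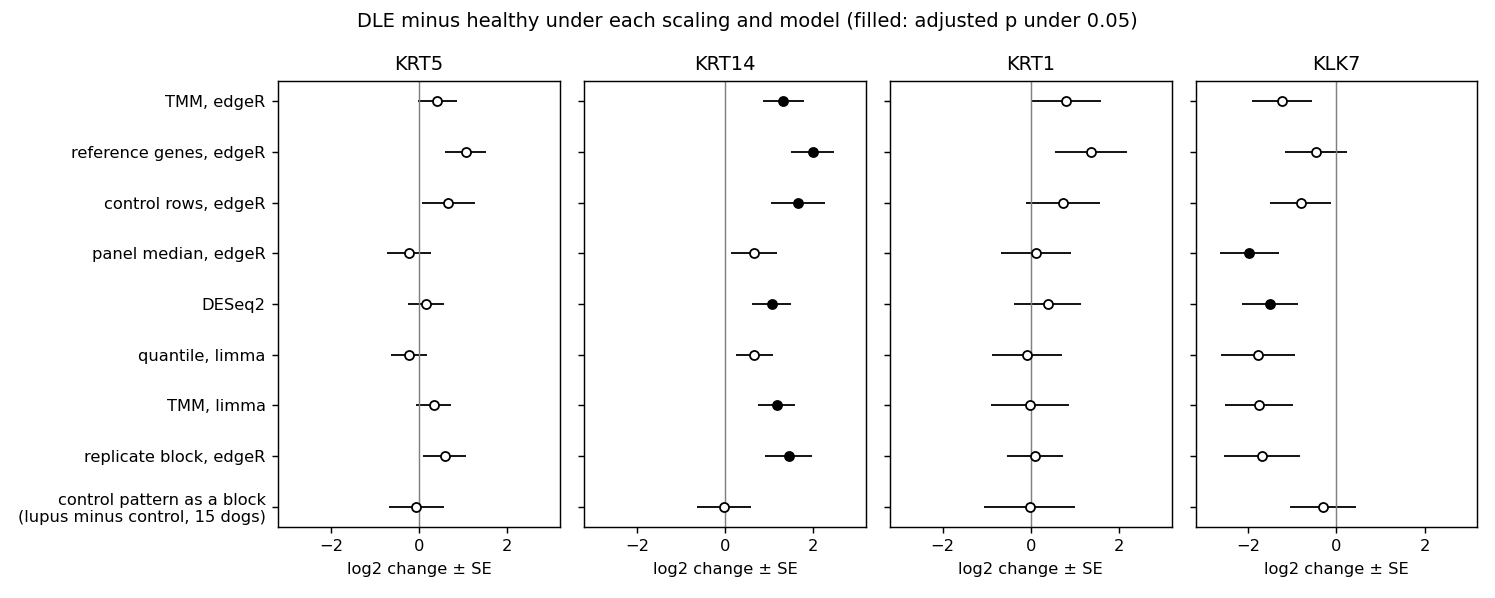
Log2 change ± SE of each gene, DLE minus healthy (7 and 5 dogs), under 8 scalings or models (the replicate block draws on DLE dogs 1 to 5 and the healthy dogs), and in the lowest row lupus minus control over all 15 dogs with the control pattern as a block. Filled points have an adjusted p under 0.05: KRT14 lies to the right of 0 in every row but the lowest, and KLK7 lies to the left of 0 in all rows.

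A ratio of 2 probes within a dog does not depend on the scaling between dogs. Its level depends on how well each probe binds, so only its differences between dogs are read here. These differences are free of probe binding only if binding was the same in all dogs, which was not tested across the control patterns. For the 6 pairs of the 4 genes an exact two-sided permutation test used all 792 splits of the 12 dogs, with p-values adjusted over all 11781 pairs of tested probes. Of the 6 pairs 3 were called, against 53.9% of all pairs. Groups did not overlap in 32.0% of all pairs and in 0 of the 6. With the control pattern as a block 0.00% of all pairs were called by the exact test, whose 54 choices allow no p under 0.0185. Before adjustment 3104 of all pairs and 0 of the 6 had an exact p under 0.05 in that test.

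The ratio of basal to suprabasal keratin (mean log2 of KRT5 and KRT14 minus log2 KRT1) was 1.37, 0.26, -0.69, -0.069, 6.15, -1.40 and 2.84 in DLE dogs 1 to 7, against 0.85, -0.99, -0.30, 1.04 and 1.63 in healthy dogs 1 to 5. DLE dogs 5 and 7 lay above the healthy range, DLE dog 6 below it and the other 4 inside. In DLE dog 5 KRT14 was counted 58.2 times as often as KRT1, against 0.266 to 1.56 times in the healthy dogs. The group means were 1.21 ± 2.58 (SD, n = 7) in DLE and 0.45 ± 1.06 (n = 5) in healthy dogs, and the medians had the opposite order, 0.26 in DLE and 0.85 in healthy dogs. The difference of the means was 0.76 with all dogs and -0.061 without DLE dog 5.

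Neither basal keratin alone passed the test against KRT1. KRT5 over KRT1 differed by log2 0.34 (exact p = 0.819, adjusted p = 0.857) and by -0.46 without DLE dog 5. KRT14 over KRT1 differed by 1.18 (exact p = 0.415, adjusted p = 0.493) and by 0.34 without DLE dog 5.

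The 2 basal keratins were not in the same proportion in the groups. Log2 KRT14 over KRT5 was -1.28, -0.26, -1.04, -1.06, -0.58, -1.01 and -0.93 in DLE dogs 1 to 7, against -1.05, -1.85, -1.91, -1.85 and -1.96 in healthy dogs 1 to 5. Healthy dog 1 lay inside the DLE range and the other 4 healthy dogs below it. The difference was 0.84, a 1.79-fold higher ratio in DLE (exact p = 0.00379, adjusted p = 0.0108). The call was not made by limma (adjusted p = 0.0550) or on group medians (exact test, adjusted p = 0.0648). The ratio was -0.30 in the MLE and -0.79 in the pyoderma dog, which share the pattern of the DLE dogs, and -1.68 in the CCLE dog, which shares that of the healthy dogs. Inside the patterns the DLE mean minus the pyoderma dog was -0.086 and the CCLE dog minus the healthy mean was 0.039, each resting on that 1 dog. With the pattern as a block the difference was 0.012 (exact p = 0.907), and disease and pattern cannot be told apart.

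**Figure D4:**
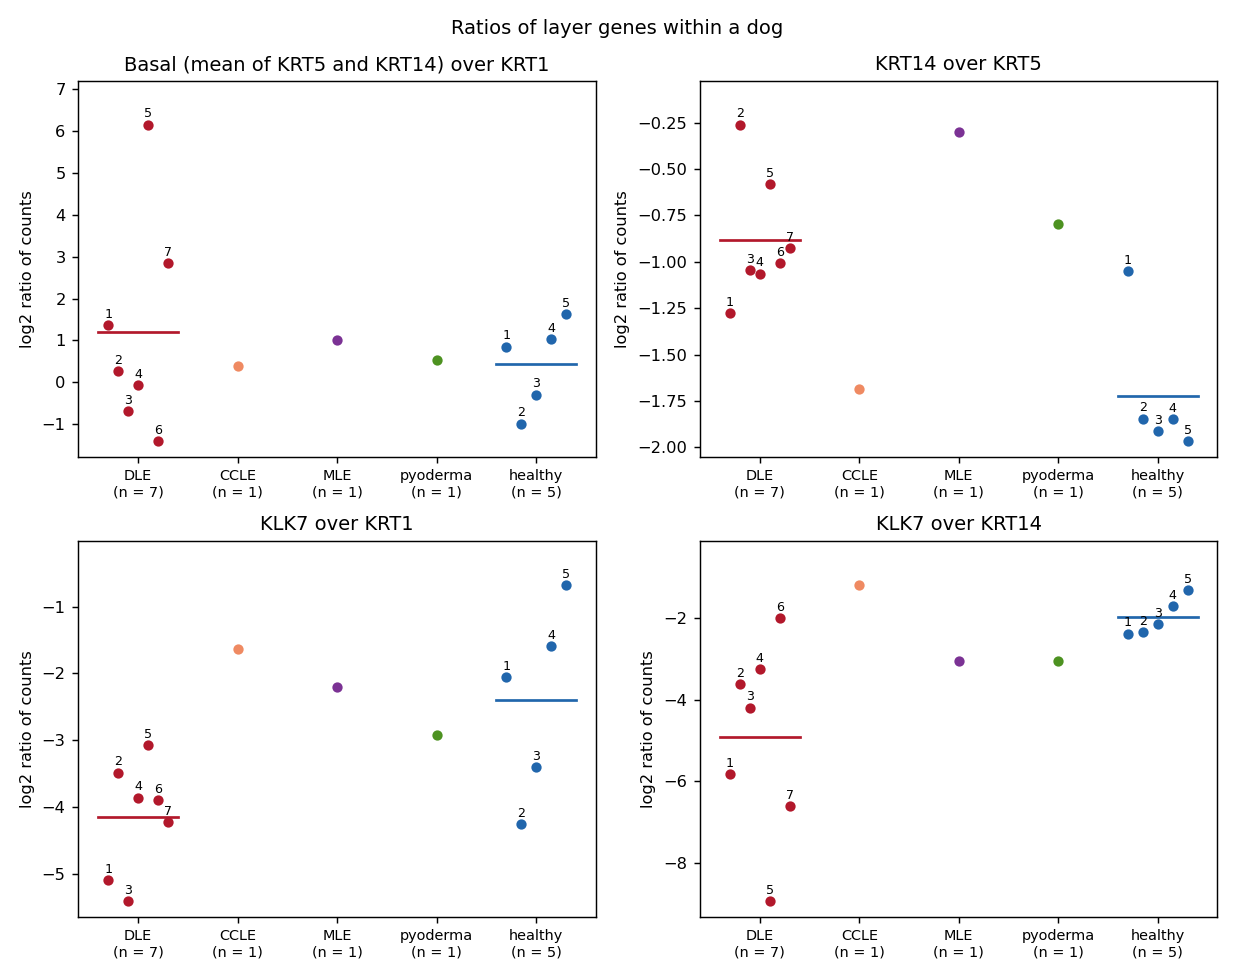
Log2 ratios of counts within each dog by diagnosis, with replicate numbers and a line at the mean of the DLE and the healthy dogs. KRT14 over KRT5 lies between -1.28 and -0.26 in DLE dogs and between -1.96 and -1.05 in healthy dogs, and basal over suprabasal keratin reaches 6.15 in DLE dog 5.

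KLK7 was low in DLE relative to KRT1 and to KRT14. Log2 KLK7 over KRT1 was -5.10, -3.49, -5.41, -3.86, -3.08, -3.90 and -4.23 in DLE dogs 1 to 7, against -2.06, -4.26, -3.41, -1.59 and -0.68 in healthy dogs 1 to 5. DLE dogs 1 and 3 lay below the healthy range and 5 inside it, a difference of -1.76 (exact p = 0.0240, adjusted p = 0.0452). Log2 KLK7 over KRT14 was lowest at -8.94 in DLE dog 5 and had a DLE median of -4.20, against -2.39, -2.35, -2.15, -1.71 and -1.32 in healthy dogs 1 to 5. Of the DLE dogs 6 of 7 lay below all healthy dogs, and dog 6 lay inside their range (difference -2.94, exact p = 0.0189, adjusted p = 0.0372).

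Both calls were close to the threshold. Leaving out 1 dog ended that of KLK7 over KRT1 for each DLE dog but 5, and for healthy dogs 1, 4 and 5 (exact test, adjusted p at most 0.117). It ended that of KLK7 over KRT14 for DLE dog 1, for DLE dog 3 and for each healthy dog (adjusted p at most 0.0783). With the control pattern as a block the differences were -0.14 and -0.46 (exact p = 0.889 and 0.796), values that lie between opposite differences inside the patterns. For KLK7 over KRT1 the DLE mean minus the pyoderma dog was -1.23 and the CCLE dog minus the healthy mean was 0.76. For KLK7 over KRT14 these differences were -1.87 and 0.79, each resting on 1 CCLE or 1 pyoderma dog. KLK7 over KRT5 differed by -2.10 (exact p = 0.0783, adjusted p = 0.123), and by -1.48 without DLE dog 5.

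In DLE dogs the 2 basal keratins varied together, and KLK7 went more with KRT1 than with them. The SD of the log2 ratio over the 7 DLE dogs was 0.34 for KRT14 over KRT5, although KRT14 alone had an SD of 0.88 and KRT5 of 0.78. It was 0.84 for KLK7 over KRT1, with 1.79 for KLK7 and 2.10 for KRT1 alone, against 2.33 for KLK7 over KRT5 and 2.36 for KLK7 over KRT14. Over the same 7 dogs the SD was 0.32 for KRT5 over HIF1A and 0.43 for KRT5 over SLC6A2. A low SD was thus not particular to the basal pair. These are descriptions of 7 dogs, and the points of a dog share its library.

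Likeness to other genes was ranked by the same SD over all 15 dogs, among 49 other probes with a symbol that were above background in at least 12 dogs. The 3 other genes most like KRT5 were SLC6A2, the noradrenaline transporter (SD 0.47), CX3CL1, a membrane-bound chemokine (0.50), and HIF1A, the oxygen-regulated transcription factor (0.54). KRT14 had the same 3, at 0.58 for SLC6A2, 0.74 for HIF1A and 0.78 for CX3CL1, with KRT5 itself closer at 0.57. For KRT1 the nearest other genes were HSD11B1, an enzyme that regenerates active glucocorticoid (1.29), IL10, an anti-inflammatory cytokine (1.38), and CX3CL1 (1.46). These values were close to the 1.45 that KRT1 itself varied by, and KLK7 was closer to KRT1 than IL10 was, at 1.35. For KLK7 the nearest other genes were HSD11B1 (1.09), CYP1B1, a cytochrome P450 enzyme (1.33), and CXCL12, a stromal chemokine (1.34), with KRT1 next at 1.35.

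The CCLE, MLE and pyoderma dogs, 1 of each and so without a test, lay inside the healthy range for KRT1 and KLK7 with TMM scaling. KRT1 stood at 15617 normalised counts in the CCLE, 14449 in the MLE and 26549 in the pyoderma dog, inside both the DLE and the healthy range. KLK7 stood at 5010, 3127 and 3508 in these dogs in that order, inside the healthy range. The CCLE and pyoderma dogs had more KLK7 than the highest DLE dog (3348), by 2.33 and 1.82 over the DLE mean on the log2 scale. Of all probes 38.3% lay outside the DLE range in the CCLE, 27.9% in the MLE and 29.9% in the pyoderma dog.

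KRT14 with TMM scaling stood at 11421 in the CCLE dog, below all DLE dogs and inside the healthy range, and at 26168 in the MLE and 29163 in the pyoderma dog, above all healthy dogs and inside the DLE range. KRT5 (36708, 32201 and 50598 in the CCLE, MLE and pyoderma dogs) was inside both ranges with TMM. Outside the healthy range lay 72.7% of all probes in the CCLE, 78.6% in the MLE and 69.5% in the pyoderma dog. Under panel median scaling KRT14 was inside the healthy range in the MLE and pyoderma dogs and below it in the CCLE dog. KRT5 was below the healthy range in the CCLE and MLE dogs under that scaling, and reference gene scaling put KRT5 and KRT1 of the pyoderma dog above it. Spike-in scaling put KLK7 of the CCLE dog above the healthy range, and KLK7 of the pyoderma dog and KRT14 of the CCLE dog inside the DLE range. KLK7 of the MLE dog was above the DLE range with spike-in and panel median scaling. The log2 ratio of basal to suprabasal keratin was 0.39 in the CCLE, 1.01 in the MLE and 0.53 in the pyoderma dog, all inside the healthy range.

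Of 95 other epidermal genes listed, 3 had a probe with a symbol, all chemokines made by epithelial cells: 1 rose, 1 fell and 1 did not pass. CCL28, which attracts lymphocytes to epithelia, averaged 238 ± 331 normalised counts in DLE and 23.1 ± 4.64 in healthy dogs (edgeR log2 3.36, adjusted p = 0.0102). CCL27, which draws skin-homing T cells, averaged 27.9 ± 8.83 in DLE and 139 ± 39.97 in healthy dogs (edgeR log2 -2.33, adjusted p = 2.04e-05). CCL28 was above background in 9 and CCL27 in 12 of 15 dogs. CCL20, which draws cells with the receptor CCR6, differed by log2 1.65 (edgeR adjusted p = 0.0789). With the control pattern as a block none of the 3 was called (edgeR log2 0.56, -1.35 and -0.061, adjusted p = 0.717, 0.0883 and 0.962).

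Markers of other cell types moved between the same groups, and their part in the layer gene results was not tested. All 4 measured T and NK cell genes of 10 listed rose, with summed normalised counts of 278 to 600 in DLE and 77.4 to 109 in healthy dogs, and the 1 measured B cell gene of 4, MS4A1, had 81.6 to 300.3 in DLE and 14.2 to 21.8 in healthy dogs. KLRD1 was above background in 14, FOXP3 in 9, CD40LG in 10, IFNG in 11 and MS4A1 in 10 of 15 dogs. Both measured stromal genes of 5, COL1A1 and CXCL12, fell, with sums of 22273 to 52352 in DLE and 42367 to 143368 in healthy dogs. PPARG, the 1 measured gene of fat and sebaceous cells of 5, fell too, with 78.8 to 583 in DLE and 373 to 3375 in healthy dogs. Both measured mast cell genes of 3 fell (sums of 406 to 676 in DLE and 698 to 979.9 in healthy dogs), 1 of 2 macrophage genes of 6 rose and 1 fell (1023 to 2197 and 774 to 3040), and 0 of 3 melanocyte genes of 6 passed edgeR's test (43.6 to 832 and 75.4 to 779). No endothelial gene of 4 matched a probe. With the control pattern as a block 3 of the 4 T and NK cell genes, MS4A1, the mast cell gene MS4A2 and the macrophage gene CD163 were still called in the same direction. In that edgeR fit the calls of IFNG (log2 0.97, adjusted p = 0.159), CD86 (0.86, adjusted p = 0.0836) and KIT (-0.051, adjusted p = 0.952) were lost. So were those of COL1A1 (-0.24, adjusted p = 0.804), CXCL12 (-0.92, adjusted p = 0.193) and PPARG (-1.62, adjusted p = 0.228) in the same edgeR fit.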

How the data were processed

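The file holds whole counts per probe as the authors deposited them, from RNA of archival paraffin-embedded skin hybridised to NanoString probes, per the labels' protocols. For counting software and background subtraction, the sources used here give nothing. Each labelled sample was taken as a separate dog, which p-values assume; no columns of a group were duplicates (lowest chi-square per degree of freedom 163). Of the 160 probes 72 had a symbol in RefSeq (UU_Cfam_GSD_1.0), used for names only. Probe sequences were not analysed here.

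HPRT1 and RPL13A were left out of the tests. TMM factors came from all panel probes and 15 dogs, filterByExpr kept 154 of 158 probes, and edgeR 4.0.16 (glmQLFit, glmQLFTest) tested the 7 DLE against the 5 healthy dogs, with no covariate and two-sided. A normalised count is a count divided by the TMM-scaled library size, times the mean of those sizes. The background limit was the mean plus 2 SD of the 8 low control rows of a dog. Ratios used raw counts. Their exact p is the share of splits with an absolute difference at least as large, and the smallest is 0.00126. In the block with the control pattern labels moved only inside a pattern, with a smallest p of 0.0185.

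The 4 genes were always named. Other genes were named from the fixed lists or as the 3 with the smallest SD of the log2 ratio. Members and lists were chosen with earlier results of these data known. Alternatives used DESeq2 1.42.0, limma 3.58.1 (pseudocounts 1 and 10) and other scalings. In simulated counts of the 7 DLE and 5 healthy dogs, over 154 probes, edgeR found 28.2% of the 2-fold and 84% of the 4-fold changes. These shares are averages over randomly chosen probes. The simulation changed a minority of probes, in directions drawn at random, whereas 61.7% of probes were called in the deposited counts. How far the shares hold for such counts was not tested. KRT1 and KLK7 had the 5th and 12th largest SD of log2 values in DLE dogs, so the shares do not apply to them. The ratio test on 11781 simulated pairs recovered 20.6% to 47.3% of pairs differing 4-fold.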

Additional observations from a re-analysis of the deposited data

Results flagged for a closer look

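One of 22 groups of values tested for a sample far from the others held one, where chance alone gives about 1 in 20. Log2 KRT14 over KRT5 was -1.05 in healthy dog 1, whereas the other 4 healthy dogs lay between -1.96 and -1.85, a gap that made up 0.87 of the range of the group. This dog had the lowest panel total (209889 counts) and the highest share of control rows (33.3%, against 8.04% to 22.9% in the other healthy dogs). Without it the difference between DLE and healthy dogs in this ratio was 1.01 (adjusted p = 0.0106, exact permutation). The part of its weaker signal in this value was not tested.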

How the results depend on the processing

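With the control pattern as a block 40 probes were called, against 95 (58 of them higher) in the main comparison, and the log2 changes of KRT5, KRT14 and KRT1 became -0.063, -0.031 and -0.026. Higher calls were 83 of 100 with reference genes, 57 of 74 with spike-ins, 43 of 107 with the panel median, 55 of 110 with DESeq2 and 45 of 97 with quantile scaling. KRT5 changed by -0.24 with the panel median and -0.23 with quantiles, and KRT14, no longer called there, by 0.65 and 0.67. KRT1 changed by -0.075 with quantiles and by -0.0099 and -0.0088 in limma with pseudocounts of 1 and 10, which average log2 values. KLK7 was called with the panel median (-1.98) and DESeq2 (-1.51). By group medians KRT5 over KRT1 differed by -0.92, and KRT14 over KRT5 (0.84), KLK7 over KRT1 (-1.85) and KLK7 over KRT14 (-2.05) were no longer called, as with the control pattern as a block (0.012, -0.14 and -0.46). In each of these exact tests 0 of all 11781 pairs were called after adjustment, so a lost call alone does not set these ratios apart. Before adjustment 5717 pairs by medians and 3104 with the pattern had an exact p under 0.05. By medians the unadjusted exact p was 0.0253 for KRT14 over KRT5, 0.0328 for KLK7 over KRT1 and 0.104 for KLK7 over KRT14. With the pattern the unadjusted exact p of these ratios was 0.907, 0.889 and 0.796. KRT14 over KRT5 was also not called by limma (0.84, adjusted p = 0.0550). With 1 dog left out the ranges were 0.15 to 0.69 for KRT5, 0.96 to 1.55 for KRT14, 0.13 to 1.02 for KRT1 and -1.51 to -0.92 for KLK7. For the ratios they were -0.46 to 0.77 (KRT5 over KRT1), 0.34 to 1.63 (KRT14 over KRT1), 0.74 to 1.01 (KRT14 over KRT5), -2.22 to -1.32 (KLK7 over KRT1), -2.56 to -1.48 (KLK7 over KRT5) and -3.43 to -2.27 (KLK7 over KRT14). The causes were not tested.

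The replicate numbers share no animal, and 2 of 5 healthy dogs correlated best with the DLE dog of their own number (pair correlations -0.14 to 0.18). With the replicate block, in which DLE dogs 6 and 7 have no partner, edgeR called 85 probes and KRT14 stayed called (1.45), while KRT14 over KRT5 (0.88), KLK7 over KRT1 (-1.79) and KLK7 over KRT14 (-3.19) were not, in an exact test of 5 pairs whose smallest p is 0.0625. All 4 genes lay above background in every dog, and how far counting, scaling and the number of dogs each limit precision was not compared.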
